A study of Mus musculus with 36 samples.

Results

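The Reg genes encode a family of small secreted lectins, and the 6 mouse genes Reg1, Reg2, Reg3a, Reg3b, Reg3d and Reg3g were followed here by name through all gene count libraries. All 6 were found among the 27179 Entrez genes of the count files. The question was how these genes varied between preparations of the small intestine, and whether they differed between mice lacking the long noncoding RNA lnc13 and their wild types.

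Polyadenylated RNA was sequenced from mice carrying DQ8, a human MHC class II type linked to coeliac disease, after a gluten challenge. The KO groups were lnc13-KO-DQ8 mice and the WT groups lnc13-WT-DQ8 mice, so DQ8 and gluten were common to both. Each genotype had 2 libraries of whole tissue, 2 of lamina propria lymphocyte (LPL) preparations and 2 of intraepithelial lymphocyte (IEL) preparations, which gives 12 libraries in 6 groups. A separate set of CD8 IELs from lnc13-KO and lnc13-WT mice, with 3 libraries per group either unstimulated or cultured for 48 h in IL-15, had labels that name neither DQ8 nor gluten. The labels call replicates biological and do not link tissue, LPL and IEL libraries to animals. They do not give age, sex or the driver of DQ8. The lnc13 transcript itself was not analysed here.

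Reg proteins are C-type lectin-like proteins first described in regenerating pancreatic islets. In the mouse gut, Reg3b and Reg3g are made by enterocytes and Paneth cells, enter the mucus and act against bacteria, and they are classical targets of IL-22 acting through STAT3. Reg1, Reg2 and Reg3d are also known as products of the pancreas.

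The 6 genes lie in a single cluster on chromosome 6, between 78370885 and 78468874 of mouse build GRCm38, in the order Reg3b, Reg3d, Reg3a, Reg2, Reg1, Reg3g. Reg3d and Reg3g are on the minus strand and the other 4 on the plus strand. As neighbouring copies they resemble each other, and the sources used here do not state how reads that map to several copies were counted, so reads may be divided between members with some error.

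Upstream sequences are shown for Reg3b and Reg3g because these were the members whose levels moved together most closely. Each is the 250 bases before the annotated start, 5′ to 3′ on the gene's strand, from the RefSeq promoter table of GRCm38.p6: chr6:78370635-78370884 (plus strand) for Reg3b and chr6:78468875-78469124 (minus strand) for Reg3g. Capitals mark the longest run common to both, which has 20 bases and ends at the base before the start in each gene. Among the 15 pairs of members the longest common run had between 7 and 20 bases, and the 20 bases were those of this pair.
Reg3b: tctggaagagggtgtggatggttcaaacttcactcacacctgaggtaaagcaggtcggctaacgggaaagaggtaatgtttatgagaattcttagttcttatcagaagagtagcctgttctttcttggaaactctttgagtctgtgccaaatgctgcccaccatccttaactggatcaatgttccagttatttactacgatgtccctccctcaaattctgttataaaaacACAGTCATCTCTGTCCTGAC
Reg3g: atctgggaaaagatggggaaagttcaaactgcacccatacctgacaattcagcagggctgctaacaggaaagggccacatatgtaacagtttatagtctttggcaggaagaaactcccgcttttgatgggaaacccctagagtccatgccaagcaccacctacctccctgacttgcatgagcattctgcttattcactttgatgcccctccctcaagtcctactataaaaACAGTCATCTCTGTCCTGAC

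Reg1 and Reg2 neighbour each other and differed in where they were detected, so their upstream sequences are set side by side: chr6:78425733-78425982 for Reg1 and chr6:78404905-78405154 for Reg2, both on the plus strand. Capitals mark their longest common run of 9 bases, which begins 31 bases before the start in both.
Reg1: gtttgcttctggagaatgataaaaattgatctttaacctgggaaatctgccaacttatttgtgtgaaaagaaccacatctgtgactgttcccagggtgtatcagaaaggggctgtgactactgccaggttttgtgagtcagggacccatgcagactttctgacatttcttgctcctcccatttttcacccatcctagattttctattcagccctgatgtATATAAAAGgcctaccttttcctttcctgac
Reg2: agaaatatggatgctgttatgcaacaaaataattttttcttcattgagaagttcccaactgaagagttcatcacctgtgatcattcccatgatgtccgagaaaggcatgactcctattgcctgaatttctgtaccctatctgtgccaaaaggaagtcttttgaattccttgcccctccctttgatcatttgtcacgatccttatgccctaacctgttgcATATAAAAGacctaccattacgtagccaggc

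Both strands of these windows were searched for the TATA-box core TATAAA. On the gene's strand it began at -30 in Reg1 and Reg2, at -29 in Reg3b and at -27 in Reg3g, counted from the start. The match at -161 in Reg3g is on the opposite strand and reads TTTATA in the sequence printed. The core was not found in the windows of Reg3a and Reg3d, and 12.368% of all 32851 promoters in the table held it on either strand. In Reg1 and Reg2 it overlaps the capitals. The STAT-type motif TTCNNNGAA, a palindrome, was found at -129 in Reg3b and at -238 in Reg3d, and not in the other 4 windows. Of all promoters, 7.02% held a match. The E-box motif CACCTG, also searched on both strands, was found in the windows of Reg2, Reg3a, Reg3b and Reg3d, and 17.22% of all promoters held it. A match is a run of letters and not evidence of binding.

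Libraries held between 10186522 and 13620975 reads in genes. The 6 members together took 2.12% and 8.16% of these reads in tissue KO, against 2.41% and 3.13% in tissue WT. They took 0.978% and 0.0609% in LPL KO and 0.453% and 0.0852% in LPL WT, and 0.181% and 0.278% in IEL KO and 0.342% and 0.204% in IEL WT. Here and below paired values are replicates 1 and 2 in that order. The preparations were checked against marker lists. Summed T cell markers were between 456 and 1835 CPM (reads scaled to a library of 1000000) in IEL and between 2.25 and 156 CPM in LPL, against 63.2 to 197 CPM in tissue, so the LPL label was not borne out by T cell genes. Plasma and B cell markers summed to between 475 and 5122 CPM in LPL and between 74.1 and 674 CPM in tissue. Epithelial markers were abundant in all preparations, with sums of 7885 to 10800 CPM in LPL, 9088 to 10530 CPM in IEL and 20340 to 28880 CPM in tissue. In tissue, replicate 2 of both genotypes carried Ddx3y, a Y-linked gene, at 38.7 CPM in KO and 34.0 CPM in WT. The other 10 libraries had at most 0.109 CPM. Xist, expressed in females, was 0 CPM in KO and 0.248 CPM in WT in those 2 tissue libraries, and at least 196 CPM in every LPL and IEL library, so tissue replicate 2 came from other mice than LPL and IEL replicate 2.

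**Figure D1:**
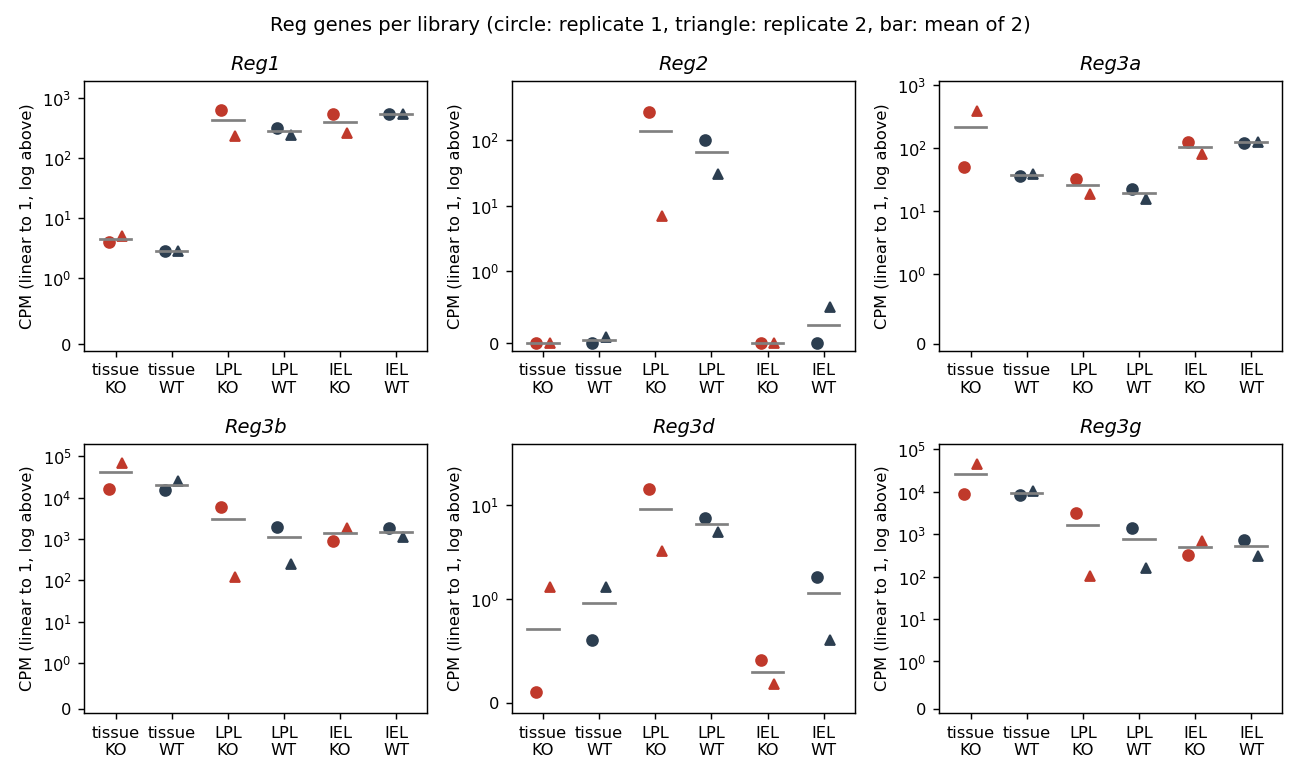
Level of each Reg gene in CPM (vertical axis, linear up to 1 and logarithmic above) in each of the 12 libraries, with KO in red and WT in dark blue, replicate 1 as a circle, replicate 2 as a triangle and the mean of 2 as a grey bar. Reg3b and Reg3g are highest in tissue, Reg1 in LPL and IEL, and Reg2 is at 6.86 CPM or more in LPL and at 0.5 CPM or less elsewhere.

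Reg3b and Reg3g, the secreted bactericidal lectins, were far lower in both lymphocyte preparations than in whole tissue. Reg3b was 5854 and 121 CPM in LPL KO, 1917 and 247 CPM in LPL WT, 912 and 1821 CPM in IEL KO, and 1845 and 1097 CPM in IEL WT. Tissue had 16190 and 66890 CPM in KO and 15280 and 24750 CPM in WT. Every LPL and IEL library thus lay below every tissue library, and the LPL libraries differed widely among themselves. On the log2 scale LPL fell by 4.003 (SE 1.12, adjusted p = 0.0142 by edgeR's quasi-likelihood test with Benjamini-Hochberg adjustment over 14716 genes) against tissue. IEL fell by 4.35 (SE 1.14, adjusted p = 0.0137 by the same edgeR test) against tissue. IEL against LPL gave -0.34 (SE 0.99, 95% interval -2.59 to 1.90), which did not pass. Single libraries set the size of the fall in LPL, with a log2 difference of -6.25 without LPL KO replicate 1, -5.06 without LPL WT replicate 1 and -3.30 without tissue KO replicate 2. In IEL it was -3.65 without tissue KO replicate 2, and the edgeR adjusted p was 0.0641 without IEL KO replicate 1, 0.051 without IEL WT replicate 1 and 0.0578 without IEL WT replicate 2.

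Reg3g was 3187 and 101 CPM in LPL KO and 1360 and 155 CPM in LPL WT. It was 328 and 682 CPM in IEL KO and 708 and 310 CPM in IEL WT. Tissue had 8690 and 44510 CPM in KO and 8087 and 10400 CPM in WT, again above all LPL and IEL libraries. LPL fell by 3.81 (SE 1.09, edgeR adjusted p = 0.0159) and IEL fell by 4.95 (SE 1.15, edgeR adjusted p = 0.0084) on the log2 scale against tissue. The difference between IEL and LPL was -1.14 (SE 0.99, 95% interval -3.37 to 1.10) and did not pass. In LPL against tissue the log2 difference was -5.76 without LPL KO replicate 1, -4.94 without LPL WT replicate 1 and -2.98 without tissue KO replicate 2, and in IEL against tissue it was -4.14 without the last of these. In bulk RNA fewer cells of a type and less RNA per cell cannot be told apart.

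Markers of the distal small intestine were also lower in LPL and IEL than in tissue. The 6 of them, among them the ileal bile acid binding protein Fabp6 and the bile acid transporter Slc10a2, summed to between 191 and 340 CPM in LPL and between 611 and 861 CPM in IEL, against 7060 to 8987 CPM in tissue, with none at 0 in any library. All 6 were lower in LPL and in IEL than in tissue by the edgeR test, with median log2 differences of -5.04 and -3.21. Between IEL and LPL they did not follow the 2 Reg genes. There 4 of the 6 markers were higher in IEL and 0 lower, with a median of 1.27, where Reg3b gave -0.34 and Reg3g -1.14. Markers of the proximal small intestine, such as the lactase Lct, summed to between 2897 and 4685 CPM in IEL and between 217 and 468 CPM in LPL, against 369 to 1119 CPM in tissue. By the edgeR test 4 of its 6 genes rose in IEL against tissue and 2 fell, the iron genes Cybrd1 and Slc40a1. In LPL against tissue 1 of the 6 rose, Gata4 (3.12 on the log2 scale), and 2 fell, Slc40a1 and Apoa4. The part of region and of epithelial content in the lower Reg3b and Reg3g levels was not tested.

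Reg3a, a further antimicrobial member, followed another order. It was 32.3 and 18.7 CPM in LPL KO and 22.5 and 15.8 CPM in LPL WT, below every tissue and IEL library. IEL had 124.3 and 81.7 CPM in KO and 122 and 127 CPM in WT, and tissue had 50.9 and 389 CPM in KO and 36.7 and 38.9 CPM in WT. LPL fell by 2.05 against tissue (SE 0.52, edgeR adjusted p = 0.00919), and IEL was 2.36 higher than LPL (SE 0.53, edgeR adjusted p = 0.0149), both on the log2 scale. IEL against tissue gave 0.31 (SE 0.50, 95% interval -0.81 to 1.44) and did not pass. The 2 comparisons with tissue depend on tissue KO replicate 2, the highest tissue library. Without it, the log2 difference of LPL against tissue was -0.96, and Reg3a was 1.37 higher in IEL than in tissue on the log2 scale (edgeR adjusted p = 0.00486, with 0.00486 to 0.865 over all alternatives). Without LPL KO replicate 2 the IEL against LPL difference did not pass (edgeR adjusted p = 0.0611).

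Reg1, known as pancreatic stone protein, was far higher in the lymphocyte preparations than in tissue. It was 647 and 235 CPM in LPL KO, 323 and 246 CPM in LPL WT, 540 and 262 CPM in IEL KO, and 553 and 547 CPM in IEL WT. Tissue had 3.91 and 5.03 CPM in KO and 2.76 and 2.81 CPM in WT, from 32 to 42 reads per library. The lowest LPL or IEL library was thus well above the highest tissue library. The rise was 6.65 on the log2 scale in LPL (SE 0.42, 100.1-fold, edgeR adjusted p = 1.48e-05) and 7.05 in IEL (SE 0.43, 132.8-fold, edgeR adjusted p = 3.78e-05), each against tissue. IEL and LPL differed by 0.41 (SE 0.32, 95% interval -0.32 to 1.14), which did not pass.

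Reg2, a pancreatic member, was detected in LPL and next to nowhere else. LPL KO had 3095 and 111 reads and LPL WT 1332 and 467 reads, which is 268 and 6.86 CPM in KO and 99.9 and 30.3 CPM in WT. IEL KO and tissue KO had no Reg2 read in either replicate, IEL WT had 0 and 5 reads and tissue WT 0 and 1. A count of 0 allows up to 3 reads, between 0.185 and 0.359 CPM per library. Pooled over both KO libraries, LPL was at least 676.3-fold higher than tissue and at least 795.7-fold higher than IEL, with the floor of 3 reads taken over the 2 libraries at 0. From LPL KO replicate 2 alone the bounds were 40.13-fold and 47.2-fold. Reg2 passed the filter on low counts only through the LPL libraries, where it is high, so its edgeR p-values between preparations are not given.

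Reg3d, whose product is known from pancreatic islets, was low throughout and highest in LPL. LPL had 14.8 and 3.21 CPM in KO and 7.28 and 5.06 CPM in WT, from 52 to 171 reads. IEL had 0.408 and 0.184 CPM in KO and 1.70 and 0.600 CPM in WT, and tissue had 0.109 and 1.32 CPM in KO and 0.604 and 1.32 CPM in WT, from 1 to 19 reads in those 8 libraries. Every LPL library lay above every other library. On the log2 scale LPL rose by 3.16 against tissue (SE 0.73, edgeR adjusted p = 0.00591), and IEL fell by 3.65 against LPL (SE 0.76, edgeR adjusted p = 0.0115). IEL against tissue gave -0.49 (SE 0.78, 95% interval -2.25 to 1.28) and did not pass. LPL against tissue was 4.49 without tissue KO replicate 2 and 2.49 without LPL KO replicate 1, and IEL against LPL was -2.94 without LPL KO replicate 1 and did not pass without IEL KO replicate 2 (edgeR adjusted p = 0.0579).

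Pancreatic transcripts were present in the same LPL libraries. The 14 exocrine pancreas markers, digestive enzymes such as the lipase Pnlip and the carboxypeptidase Cpa1, summed to 11520 and 5714 CPM in LPL KO and 6938 and 6380 CPM in LPL WT, with none at 0. They summed to between 24.7 and 63.1 CPM in IEL and between 17.0 and 91.98 CPM in tissue, with 3 to 9 of the 14 at 0 in those libraries. For all 14, every LPL library lay above every tissue and IEL library. Markers at or near 0 outside LPL entered the edgeR test only through the LPL libraries, where they are high, so its calls are not used here. LPL KO replicate 1 had the most pancreatic RNA and the most Reg2 and Reg3d, and among LPL libraries KO replicate 2 had the least of each. Reg1, Reg3b and Reg3g had the same highest and lowest LPL libraries, so this order was not particular to Reg2 and Reg3d. The sizes differed as well, with pancreas sums of 11520 and 5714 CPM in LPL KO beside Reg2 at 268 and 6.86 CPM. IEL libraries, whose pancreas sums overlapped those of tissue, had Reg1 levels that overlapped those of LPL. The part of pancreatic RNA in the LPL levels of Reg1, Reg2 and Reg3d was not tested.

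Of the 5 members other than Reg2, LPL against tissue passed for 5, with 2 higher and 3 lower, where 27.3% of all genes tested were higher and 28% lower. IEL against tissue passed for 3 members, 1 higher and 2 lower, against 21.9% of genes higher and 23.1% lower. IEL against LPL passed for 2, with 1 higher and 1 lower, against 11.5% higher and 7.92% lower. The preparations differed in a large share of all genes, and each count is read against those shares.

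**Figure D2:**
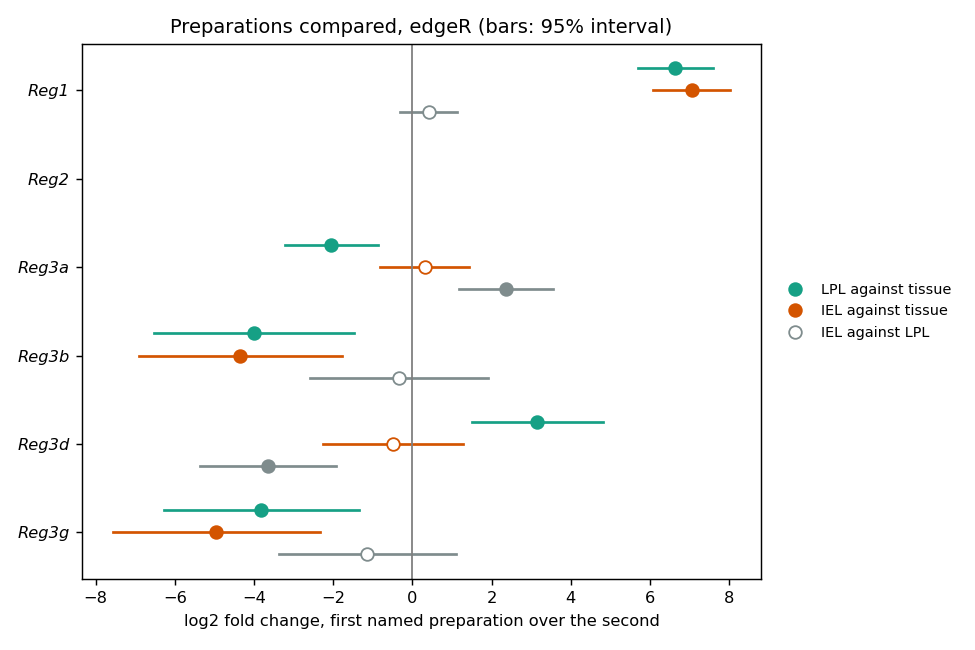
Log2 fold change (horizontal axis, first named preparation over the second, with 95% intervals as bars) of Reg genes between preparations, filled circles where the edgeR adjusted p was under 0.05. Reg2 has no fold drawn since tissue and IEL were at or near 0 reads. Reg3b and Reg3g are lower in LPL and IEL than in tissue, and Reg1 is higher by 6.65 and 7.05.

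Members differed in how they varied together. On log2(CPM + 0.5), Reg3b and Reg3g had a Pearson correlation of 0.986 over the 12 libraries and of 0.989 after the mean of each preparation was removed. The other 14 pairs ranged from -0.794 to 0.923 over all libraries and from 0.197 to 0.857 within preparations. Reg1 ran opposite to Reg3b over all libraries (-0.764) and with it within preparations (0.654). The ratio of Reg3b to Reg3g reads lay between 2.61 and 3.54 in IEL, between 1.20 and 1.84 in LPL and between 1.503 and 2.38 in tissue. It was therefore higher in each IEL library than in any other library. These correlations describe 12 libraries that share 3 preparations and their depths.

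The genes whose pattern was most like each member were also found, as the 3 highest correlations of log2(CPM + 0.5) over the 12 libraries among genes with a mean of at least 5 CPM. For Reg1 they were Onecut2, a homeodomain transcription factor (0.995), Dennd2d (0.991) and Zfp820 (0.987). Onecut2 was between 40.0 and 72.0 CPM in LPL and IEL, against 0.248 to 0.544 CPM in tissue. For Reg2 they were the serpin Serpini2 (0.968), the pancreatic amylase Amy2b (0.963) and the zymogen granule protein Cuzd1 (0.963), and Serpini2 was between 11.1 and 27.5 CPM in LPL and at 0.1 CPM or less elsewhere. For Reg3a they were Tha1 (0.958), the cytokine Il18 (0.929) and the glycolytic regulator Pfkfb4 (0.909). For Reg3b they were Fam3b (0.950), the epithelial kinase Ptk6 (0.945) and Camk2n1 (0.943), and for Reg3g Ppp1r11 (0.969), the NADPH oxidase subunit Cyba (0.962) and the serine protease Prss27 (0.956). Reg3d had a mean under 5 CPM and was given no such genes.

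**Figure D3:**
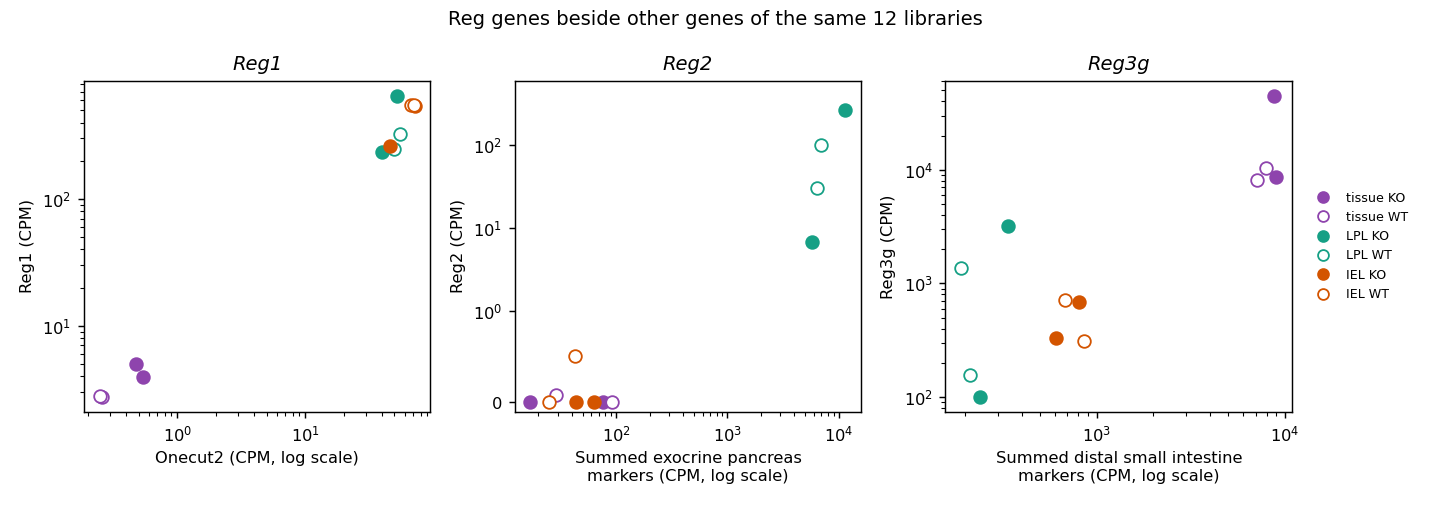
Reg1, Reg2 and Reg3g (vertical axes, CPM, log scale, linear below 1 for Reg2) in the 12 libraries against Onecut2, the summed exocrine pancreas markers and the summed distal small intestine markers (horizontal axes, CPM, log scale), with KO filled and WT open. LPL libraries stand at 5714 CPM of pancreas markers or more together with Reg2, and tissue libraries at 7060 CPM of distal markers or more with the highest Reg3g.

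Whether loss of lnc13 altered the family was asked within each preparation. None of the 6 members passed in tissue, LPL or IEL, with an edgeR adjusted p of 1 for each, where 0% of the 14716 genes tested passed. At an unadjusted p under 0.05 edgeR had 463 genes in tissue (3.15%), 448 in LPL (3.04%) and 120 in IEL (0.815%). A threshold of 0.05 would by itself let through a larger share than any of these. DESeq2's Wald test called 6, 1 and 1 genes at its adjusted threshold, none of them a member.

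In tissue, Reg3a had 468 and 3251 reads in KO and 425 and 471 reads in WT, which is 50.9 and 389 CPM in KO and 36.7 and 38.9 CPM in WT. Both KO libraries lay above both WT libraries, with KO replicate 1 close to WT and KO replicate 2 far above. The log2 difference was 2.54 (SE 0.74, 95% interval 0.86 to 4.22, edgeR adjusted p = 1). With a replicate block it was 1.93 (edgeR adjusted p = 0.347). Without KO replicate 1 it was 3.30, from a fit in which KO had a single library and so no spread of its own. Without KO replicate 2 it was 0.44.

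Reg3b and Reg3g had the same high library. KO replicate 1 lay between the WT replicates for both genes, and KO replicate 2 was the highest of the 4, as the levels above show. The log2 difference was 1.05 for Reg3b (SE 1.42, 95% interval -2.15 to 4.25) and 1.53 for Reg3g (SE 1.41, 95% interval -1.66 to 4.71). Without KO replicate 2 they were -0.29 and -0.08. Between libraries with the same replicate number, KO over WT was 1.06 and 2.70 for Reg3b, 1.08 and 4.28 for Reg3g, and 1.39 and 10.02 for Reg3a, in numbers 1 and 2. Reg1 had a log2 difference of 0.68 (SE 0.54, 95% interval -0.54 to 1.90), with both KO libraries above both WT libraries. Reg3d gave -0.45 (SE 1.07), and Reg2 was at 0 reads in 3 of the 4 tissue libraries.

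Other defence genes also differed in the same tissue library, in both directions. Of the 21 tested genes of the defence list, 11 were highest and 7 lowest of the 4 tissue libraries in KO replicate 2, and of the 9 Paneth cell markers 8 were lowest there. Of the 9 epithelial markers 4 were highest and 4 lowest in it, so such places were not limited to defence genes. Of 15 tested genes of IL-22 and cytokine input to Reg3 genes, 8 were highest and 0 lowest there. Of the 9 T cell markers 0 were highest and 5 lowest. The share over all genes was not computed, so these counts only describe the lists and cannot be set against other genes. Reg4, a Reg-like lectin gene outside the cluster, was 153 and 8.50 CPM in KO and 146 and 42.9 CPM in WT. Saa1, an acute-phase apolipoprotein, was 697 and 4998 CPM in KO and 499 and 1008 CPM in WT. Fut2, a fucosyltransferase of the epithelium, was 88.8 and 495 CPM in KO and 66.0 and 65.9 CPM in WT. The STAT3 feedback inhibitor Socs3 was 38.9 and 313 CPM in KO and 39.6 and 63.03 CPM in WT. In Saa1, Fut2 and Socs3 KO replicate 2 was the highest of the 4 libraries and KO replicate 1 near the WT values. Lct was 211 and 0.359 CPM in KO and 81.2 and 0.330 CPM in WT, so replicate 2 of both genotypes also differed from replicate 1 in a proximal marker. The part of region and sex in these tissue values was not tested.

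In LPL the replicates of both genotypes lay far apart. KO replicate 1 was the highest of the 4 LPL libraries for all 6 members, and KO replicate 2 the lowest for 5 of them, the exception being Reg3a. Reg3b gave a log2 difference of 1.47 (SE 1.43, 95% interval -1.77 to 4.70) and Reg3g of 1.12 (SE 1.40, 95% interval -2.04 to 4.28). Without KO replicate 1 they were -3.10 and -2.85, and without WT replicate 1, the higher WT library for both genes, 3.59 and 3.40. Reg1 gave 0.63 (SE 0.46), Reg2 1.08 (SE 1.32), Reg3a 0.41 (SE 0.72) and Reg3d 0.54 (SE 0.91). Summed T cell markers were 2.25 and 15.3 CPM in LPL KO and 156 and 17.1 CPM in LPL WT, so WT replicate 1 stood apart in its immune content, and it also held Il22 at 33.4 CPM, against at most 1.80 CPM in every other library. The part of these in the LPL values was not tested.

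In IEL the differences were small beside their errors, which come from a spread shared by all 12 libraries and not from IEL alone. Reg3b gave -0.11 (SE 1.40, 95% interval -3.28 to 3.06) and Reg3g -0.01 (SE 1.38, 95% interval -3.13 to 3.11), with KO and WT libraries overlapping. Reg1 gave -0.45 (SE 0.46, 95% interval -1.48 to 0.58), with both KO libraries below both WT libraries. Reg3a gave -0.27 (SE 0.70) with overlapping groups. Reg3d gave -1.94 (SE 1.15) from 4 and 2 reads in KO and 19 and 6 reads in WT. The intervals of Reg3b and Reg3g leave room for differences of several fold either way, so the absence of a call does not show that KO and WT were alike.

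The knockout effect was also compared between preparations, and no member passed (0% of genes in each comparison, edgeR). At an unadjusted p under 0.05 there were between 112 and 288 genes per comparison (0.761% to 1.96%), and DESeq2 called 0 in each. Among the members Reg3a differed most for its error, with an effect in IEL minus tissue of -2.82 on the log2 scale (SE 1.012, edgeR adjusted p = 1).

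**Figure D4:**
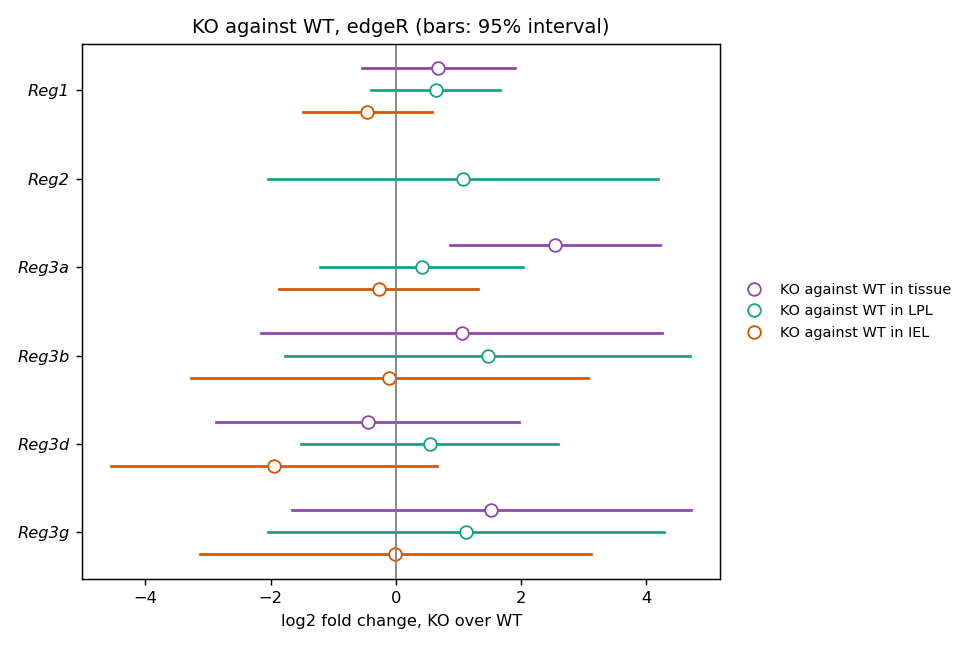
Log2 fold change of KO over WT (horizontal axis, 95% intervals as bars) for each Reg gene in tissue, LPL and IEL by edgeR, all with open circles since none passed. Reg2 is drawn for LPL only. The interval of Reg3a in tissue, 0.86 to 4.22, is the one that does not span 0, before adjustment over genes.

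The upstream pathway and other defence genes were summarised from lists of genes. Of 20 genes of IL-22 and cytokine input to Reg3 genes, 15 were tested and none passed for KO against WT, with median log2 differences of 0.32 in tissue, -0.30 in LPL and 0.01 in IEL, against -0.01, 0.01 and -0.02 for all genes. Between preparations, LPL against tissue gave 1 rise and 7 falls, IEL against tissue 3 rises and 5 falls, and IEL against LPL 4 rises and 0 falls. The IL-22 receptor chain Il22ra1 fell by 2.23 in LPL (SE 0.17, edgeR adjusted p = 2.59e-05) and by 1.35 in IEL (SE 0.17, edgeR adjusted p = 0.000565) against tissue on the log2 scale. Its partner chain Il10rb fell by 1.501 and 0.78, and Stat3 fell by 1.30 and 0.91, in LPL and IEL in that order. Il1b rose by 3.65 in LPL, the 1 rise there, and by 3.91 in IEL against tissue. Its highest level was 60.0 CPM, in LPL WT replicate 1. Tyk2 rose by 0.54 in IEL against tissue. Il18 was 0.71 higher in IEL than in tissue and 1.56 higher than in LPL, the order also seen for Reg3a between IEL and LPL.

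Of 25 other epithelial antimicrobial and defence genes, 21 were tested and none passed for KO against WT in any preparation, with medians of 0.07 in tissue, 0.10 in LPL and 0.28 in IEL. LPL against tissue had 1 higher and 9 lower, with a median of -0.18. The higher gene was Tff2, at 13.3 to 26.15 CPM in LPL and at 0.12 CPM or less elsewhere. Like Reg2, Tff2 entered the test only through the LPL libraries, where it is high. IEL against tissue had 0 higher and 12 lower with a median of -2.04, and IEL against LPL 0 higher and 7 lower with a median of -1.53. Saa1 was between 0.0892 and 4.79 CPM in LPL and IEL, against 499 to 4998 CPM in tissue. The nitric oxide synthase Nos2 fell by 4.74 in LPL (SE 0.85, edgeR adjusted p = 0.00162) and it fell by 6.877 in IEL (SE 0.95, edgeR adjusted p = 0.000855) on the log2 scale, and the oxidase Duox2 fell by 2.54 and 3.34, each against tissue. Extl3, reported as a receptor for REG proteins, was between 21.3 and 32.1 CPM in all 12 libraries and passed in no comparison. Ctnna2, the gene beside the cluster outside the family, had too few reads to be tested.

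Reg transcripts also appeared in the CD8 IEL libraries, unevenly. Values here are the authors' normalised values, and the unstimulated and IL-15 sets were normalised apart. Reg3g was 0, 0 and 1685 in unstimulated KO cells and 333, 1564 and 971 in unstimulated WT cells. Reg3b was 8.14, 686 and 522 in KO and 0.870, 1903 and 653 in WT. For Reg3g in KO and Reg3b in both genotypes, high libraries thus stood beside others at or near 0, while all 3 WT libraries held Reg3g. Reg1 was 1080, 0.929 and 0 in KO and 397, 6.25 and 1.00 in WT, and Reg3a was 417 in WT replicate 1 and at most 3.05 in the other 5 libraries.

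In the IL-15 set no Reg value exceeded 165. Reg3g was 14.1, 17.5 and 0 in KO and 165, 1.12 and 19.9 in WT, and Reg3b was 11.04, 15.1 and 0 in KO and 109, 4.47 and 0 in WT. Reg2 was listed at 0 in all 6 of these libraries, as was Reg3d. Epithelial transcripts were uneven too. In unstimulated cells the keratin Krt8 was 1981, 2276 and 20.0 in KO and 0.870, 1771 and 2024 in WT. Epcam, an epithelial adhesion gene, was 2.04, 2.79 and 0 in unstimulated KO and 0, 0.781 and 1265 in unstimulated WT. After IL-15 Epcam was between 668 and 3071 in all 6 libraries, where Krt8 was at most 116 and the Reg values were low. The T cell gene Cd3e was between 11290 and 23350 in all 12 libraries. The part of epithelial RNA in these values was not tested.

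The test on log2(value + 1) by limma called no member in either set, where 0% of genes passed in either (17208 tested in unstimulated cells, 16371 after IL-15). At an unadjusted p under 0.05 there were 575 genes in unstimulated cells (3.34%) and 1841 after IL-15 (11.2%). Of the members, 4 reached the mean of 5 needed for a test in unstimulated cells and 3 did so after IL-15. Reg3g gave -6.07 on the log2(value + 1) scale in unstimulated cells (SE 3.18, 95% interval -13.61 to 1.47, limma adjusted p = 0.903) and -1.57 in the IL-15 set (SE 1.76, limma adjusted p = 0.727). With 2 KO libraries listed at 0, the first of these has no fold.

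**Figure D5:**
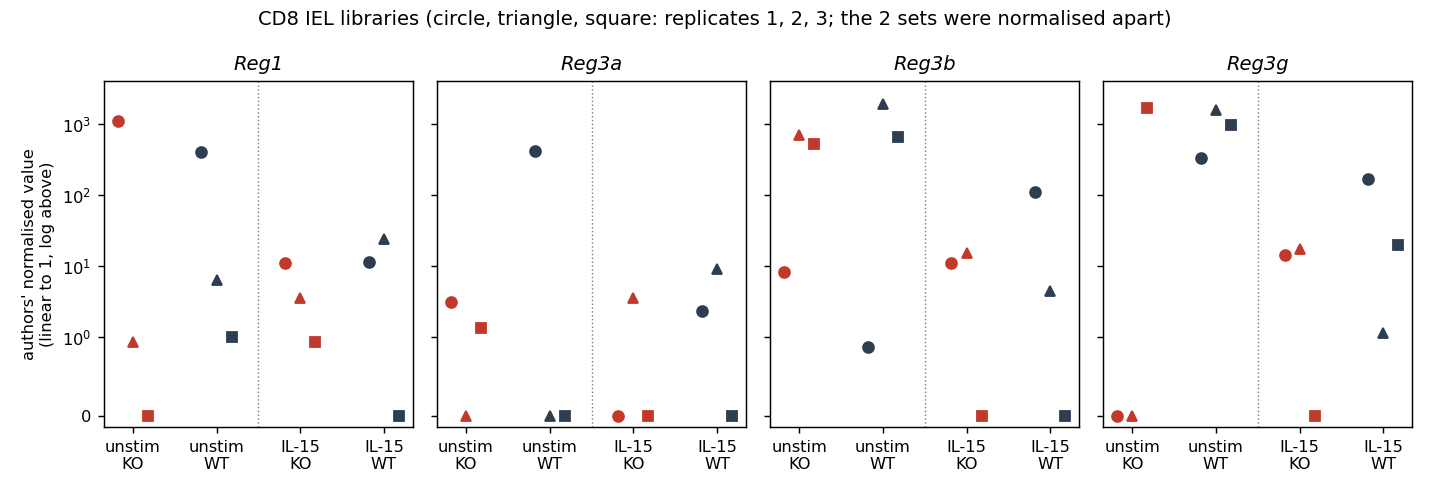
Authors' normalised values (vertical axis, linear up to 1 and logarithmic above) of Reg1, Reg3a, Reg3b and Reg3g in each CD8 IEL library, KO in red and WT in dark blue, 3 replicates per group, unstimulated left and IL-15 right of the dotted line. Unstimulated libraries of the same group spread from near 0 to 1685 in KO and 1903 in WT, and IL-15 libraries stay at or below 165.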

How the data were processed

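Poly(A) RNA libraries came from 2 NEBNext kits, a low-input one for CD8 cells and an Ultra II one for all others, per the labels' protocols. Raw read counts per Entrez gene are in the 12 deposited gene files. HISAT2 is the aligner per the file headers and featureCounts the counter, while TopHat is the aligner named, with DESeq and mm10, per the submitters' processing notes, so the aligner is recorded in 2 ways. Strand setting and the treatment of reads that map to several places are not given in the sources used here. Both deposited CD8 tables give, for Ensembl genes, a normalised signal in steps of a fixed size per column that fit read counts which the authors divided by a size factor. No count test was run on them. Symbols were found for 25275 of 27179 Entrez IDs and for 51486 of 78275 Ensembl IDs. Transcript lengths were not used, so levels are compared within a gene.

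Libraries were grouped by their titles. A single edgeR 4.0.16 quasi-likelihood fit covered the 12 count libraries in their 6 groups, with TMM factors and filterByExpr in R 4.3.3, and adjusted by Benjamini-Hochberg at 0.05 over 14716 genes. CPM use the same TMM factors. Comparisons were KO against WT in each preparation, preparations over both genotypes, and the difference of knockout effects. CD8 tables were each tested by limma 3.58.1 with a trend on log2(value + 1), keeping genes whose mean reached 5. Alternatives were DESeq2 1.42.0 size factors and its Wald test, no filter, a replicate block, each preparation alone, other pseudocounts and each library left out. Library totals without TMM were added after seeing the data. Depth was 10186522 to 13620975 reads, and floors and counts cover counting error only. The fits were tested on simulated data. P-values rest on 2 libraries per group (3 in CD8 sets) and set a difference against the spread between libraries. The main edgeR fit estimated 1 spread per gene over all 12 libraries. An error given for 1 preparation thus also carries the spread of the others. For Reg3b, KO against WT, the SE was 1.42 in tissue, 1.43 in LPL and 1.40 in IEL.

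Named were all 6 members, the 3 closest genes by correlation, and list genes with a small p in a comparison described. The plan to name up to 4 genes per list by the smallest p was not followed throughout. Socs3, Lct, Ddx3y, Fabp6, Slc10a2, Pnlip, Cpa1, Krt8, Epcam, Xist, Reg4, Cybrd1, Slc40a1, Duox2 and Il22 were named for context after their values were seen. The members and lists were chosen with earlier results of these data known. Libraries with the same replicate number correlated after removal of group means (tissue 0.668, LPL 0.347, IEL 0.532), which with 2 numbers cannot show pairing. Promoters are from the RefSeq table of GRCm38.p6, read with Python 3.11.15 and pandas 2.3.3. Not used here were the CD8ab libraries made after gluten and those of RNA antisense purification.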

Additional observations from a re-analysis of the deposited data

How the results depend on the processing

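Under 174 alternatives to the 11 counts of members called, 167 called the same members, 2 called 1 more and 5 called 1 fewer. Without tissue KO replicate 1, KO against WT in tissue called 1 member, Reg3a, so over all leave-one-out fits that count ranged from 0 to 1. Without tissue KO replicate 2, IEL against tissue called 4 members in place of 3, the added one being Reg3a. Of 10 single differences called between preparations, Reg2 aside, 165 of 170 alternatives kept the call, 5 lost it and none changed sign. The losses were Reg3b in IEL against tissue without IEL KO replicate 1 (adjusted p = 0.0641), IEL WT replicate 1 (0.051) or IEL WT replicate 2 (0.0578), Reg3a in IEL against LPL without LPL KO replicate 2 (0.0611), and Reg3d in IEL against LPL without IEL KO replicate 2 (0.0579), all by edgeR. The cause was not tested.

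Signs of uncalled differences changed as follows, on the log2 scale, and the cause was not tested. Reg3g in IEL, KO against WT, was 0.01 with DESeq2 size factors and its Wald test (0.011 in both) and 0.013 with a replicate block. Reg2 in LPL was -0.21 with the replicate block. Leaving out each library gave ranges for KO against WT in tissue of -0.29 to 1.68 (Reg3b), -0.078 to 2.21 (Reg3g) and -3.01 to 0.39 (Reg3d). In LPL the ranges were -0.24 to 1.19 (Reg1), -3.19 to 2.17 (Reg2), -3.10 to 3.59 (Reg3b), -0.90 to 1.26 (Reg3d) and -2.85 to 3.40 (Reg3g). In IEL they were -0.70 to 0.35 (Reg3b) and -0.64 to 0.71 (Reg3g). IEL against tissue ranged from -0.056 to 1.37 (Reg3a) and -0.95 to 0.81 (Reg3d), and IEL against LPL from -0.85 to 1.95 (Reg3b) and -1.64 to 0.85 (Reg3g). A lone library left in a group was assumed to vary like the other groups.

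The replicate block changed no count of members called. Between preparations it joins libraries by number alone, since tissue replicate 2 came from other mice. In the CD8 sets same-numbered libraries correlated between -0.057 and 0.001, so the numbers were taken as labels only. Library totals without TMM moved the median of all genes by -0.28 in tissue KO against WT, -0.12 in LPL KO against WT, 0.42 in LPL against tissue, 0.19 in IEL against tissue and -0.23 in IEL against LPL. Reg2 and Reg3d had at most 19 reads in any tissue or IEL library.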
